A study of Coturnix japonica and Phalacrocorax auritus with 29 samples.

Results

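Livers of Japanese quail embryos (JQ) exposed in the egg to a high dose of chlorpyrifos were compared with livers of embryos exposed to a medium dose. Both groups received the insecticide, so the contrast shows what differed between the higher and the lower exposure. It was chosen by the group labels, and used 10 of the 29 RNA-seq libraries of the study and all 22845 protein names of the quail count table. Of these names, 14927 had enough counts to be tested. The high dose group was 5 livers of JQ embryos at day 9 of development, the medium dose group was 5 such livers, and the control group was 5 livers of embryos given the solvent DMSO. The labels give day 16 for control replicate 5 and day 9 for the other quail livers. The double-crested cormorant (DCCO), at day 16, had 5 high dose, 5 medium dose and 4 control livers. Dosing was by injection into each egg's air cell, ahead of incubation. The labels name 3 nominal doses, 0.4, 4 and 40 µg per g egg, without tying them to the words medium and high, and state that the high dose was set to keep embryonic mortality under 20%. The study asks how the 2 species differ in their sensitivity to this compound.

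Chlorpyrifos is an organophosphate insecticide. Liver cytochrome P450 enzymes convert it either to an oxon, which blocks acetylcholinesterase and other serine esterases, or to products that no longer do so, and paraoxonases and carboxylesterases remove the oxon. Many foreign compounds raise their own metabolism through receptors in the nucleus. In the chicken, the receptor CXR raises CYP2H1, CYP2H2 and CYP3A37 together with ALAS1, the gene of the enzyme that starts heme synthesis, and the aryl hydrocarbon receptor raises CYP1A4 and CYP1A5. The oxidised products are then coupled to glucuronic acid, glutathione or sulfate by UDP glucuronosyltransferases (UGT), glutathione S-transferases (GST) and sulfotransferases (SULT), and are carried out of the cell.

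At the high dose, genes of xenobiotic oxidation and glucuronidation stood far above their medium dose level. Of 56 tested features named as cytochrome P450, 22 rose and none fell, and of 14 named as UDP glucuronosyltransferase, 12 rose and none fell. Over all features tested, 1.89% were called changed, 1.38% higher and 0.509% lower. Calling used edgeR's quasi-likelihood test with a Benjamini-Hochberg adjusted p under 0.05, and every adjusted p below is of that test unless another is named. There were 282 such features, 206 of them higher and 76 lower at the high dose, and the median log2 fold change of all features tested was -0.00037. The change was over 1 on the log2 scale in 176 of the called features, 138 of them higher and 38 lower. All 5 high dose livers were above all 5 medium dose livers in 1.78% of the features tested and below them in 1.15%, and this held for 169 of the 206 features called higher and 56 of the 76 called lower. The falls were fewer and included complement C3, the plasma proteins transferrin (TF) and angiotensinogen (AGT), FABP1 and the nuclear receptor NR0B1. The calls of TF, AGT and FABP1 each ended when certain single libraries were left out, as given below, and that of C3 did not. Values below are TMM-normalised CPM, counts scaled to a common library total, which do not correct for protein length.

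**Figure D1:**
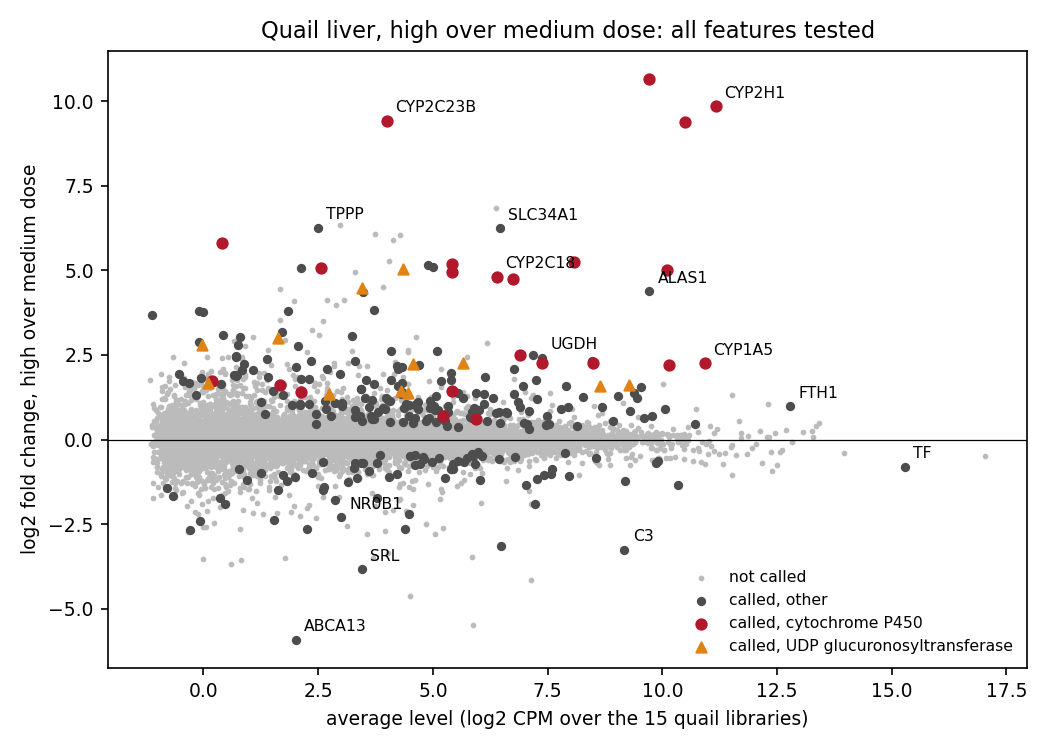
Log2 fold change of the high over the medium dose (vertical axis) against the average level in log2 CPM (horizontal axis) for the 14927 features tested, 1 point per feature. Called features are dark grey, P450 features red circles and UDP glucuronosyltransferases orange triangles. The largest rises are P450 features, among them CYP2H1 at 9.84 and CYP2C23B at 9.42, and the largest fall is that of ABCA13 at -5.92.

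Library totals ran from 17735123 to 26436594 counts at the high dose and from 11548222 to 27778954 at the medium dose. The leading principal component of the 10 libraries held 24.4% of the variance and separated the high from the medium dose. 2 libraries carried markers of another tissue. The 5 tested kidney markers averaged 7.60, 1.98, 1.56, 1.504 and 1.47 log2 CPM in high dose replicates 1 to 5, against 1.15, 2.19, 2.09, 1.91 and 1.68 in medium dose replicates 1 to 5, and their summed level was 2042 CPM in high dose replicate 1, against 57.6 CPM or less in the other high dose libraries. High dose replicate 1 also had the lowest mean of the 19 tested hepatocyte markers, 9.27 log2 CPM against 9.68 to 9.82 in the other high dose libraries. Muscle markers were highest in medium dose replicate 1, at 3.21 log2 CPM, against 0.78 to 1.87 in the other medium dose libraries. Over the 10 libraries the mean of the hepatocyte markers ran from 9.27 to 10.23 log2 CPM, but not every member was high. CPS1 had 198 counts over the high dose livers and 363 over the medium dose livers, and HPX 204 and 2837. SERPINA1 had 2 and 0 counts and was not tested. In whole tissue, fewer cells of a type and less RNA per cell cannot be told apart. Without any 1 of the 10 libraries, 166 to 391 features were called, and 124 of the 282 calls, 101 higher and 23 lower, held in all 10 of those fits. The counts were 180 without high dose replicate 3, and 174, 168, 166 and 181 without medium dose replicates 2, 3, 4 and 5. Without both high dose replicate 1 and medium dose replicate 1, a fit added after the data were seen, 287 features were called, 214 of them among the 282. For a named feature, each library whose removal ended its call is given beside it.

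The largest rises were in the CYP2H group, the phenobarbital-inducible oxidases of chicken liver. CYP2H1 had 5742, 4353, 9028, 9116 and 6302 CPM in high dose replicates 1 to 5, against 12.6, 5.205, 4.13, 8.89 and 6.72 CPM in medium dose replicates 1 to 5. CYP2H2 had 3159, 2926, 4918, 5772 and 4946 CPM in high dose replicates 1 to 5, against 11.5, 3.64, 4.50, 8.55 and 4.36 CPM in medium dose replicates 1 to 5. Every high dose liver lay far above every medium dose liver for both genes. The log2 fold change was 9.84 ± 0.69 (SE, adjusted p = 1.18e-06) for CYP2H1 and 9.37 ± 0.57 (SE, adjusted p = 1.72e-07) for CYP2H2. The feature named cytochrome P450 2H1-like averaged 2494 ± 947 CPM at the high dose and 1.51 ± 0.630 CPM at the medium dose (SD, n = 5 each), with a log2 fold change of 10.66 ± 0.61 (SE, adjusted p = 1.10e-07). Replicates 3, 4 and 5 were above replicates 1 and 2 of the high dose in all 3 of these features.

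The CYP2C features moved the same way. CYP2C18 averaged 235 ± 58.4 CPM at the high dose and 8.37 ± 5.40 CPM at the medium dose (SD, n = 5 each), and CYP2C19 averaged 120.4 ± 21.1 CPM at the high dose and 3.92 ± 2.56 CPM at the medium dose. CYP2C23B had 35.0, 31.9, 59.6, 64.4 and 44.9 CPM in high dose replicates 1 to 5, against 0.0523, 0.0801, 0.0529, 0.0950 and 0 CPM in medium dose replicates 1 to 5, which rest on 5331 counts over the high dose livers and 6 counts over the medium dose livers. No high dose value overlapped a medium dose value in any of these genes, and the log2 fold changes were 4.81 ± 0.48 (SE, adjusted p = 5.10e-05), 4.94 ± 0.48 (SE, adjusted p = 4.73e-05) and 9.42 ± 0.35 (SE, adjusted p = 4.50e-10). Within the CYP2 family 12 of 27 tested features rose. CYP2W1, at 5.39 against 1.78 CPM, rose by 1.61 ± 0.24 (SE, adjusted p = 0.00180), and CYP2W2 by 1.40 ± 0.31 (SE, adjusted p = 0.0304), a call that ended without high dose replicates 1, 3 or 4 or medium dose replicates 2, 3 or 4 (adjusted p up to 0.0773). The remaining named CYP2 genes were not called. CYP2K4 and CYP2K6 had log2 fold changes of -0.89 and -0.88 (adjusted p = 0.594 and 0.424), CYP2AC1 had -0.80 (0.593), CYP2AC2 had 0.032 (0.982) and CYP2U1 had -0.12 (0.888). Counting by protein name can split the reads of near-identical family members between them. The level of a single CYP1A, CYP2, CYP3A or UGT name is therefore uncertain, and the names of a family are not independent results. The family sums given below are firmer.

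CYP3A features, which oxidise many drugs and steroids, rose in 3 of 4 tested names. CYP3A37 had 87.6, 46.0, 185, 136 and 156 CPM in high dose replicates 1 to 5, against 2.72, 3.36, 1.38, 8.22 and 0.611 CPM in medium dose replicates 1 to 5. High dose replicate 2 had the lowest of the high dose values and still exceeded the highest medium dose value, that of replicate 4. The log2 fold change was 5.18 ± 0.59 (SE, adjusted p = 0.000198) for CYP3A37 and 5.06 ± 0.68 (SE, adjusted p = 0.000795) for the feature named cytochrome P450 3A8. Without medium dose replicate 4, the highest of its group, that of CYP3A37 was 5.84 (adjusted p = 0.000113). The tested name that was not called, cytochrome P450 3A12-like, had a log2 fold change of 0.30 (adjusted p = 0.679). Of the 3 names that rose, cytochrome P450 3A9-like had the highest average level. It had 781 ± 366 CPM at the high dose and 20.4 ± 18.3 CPM at the medium dose. Cytochrome P450 3A9-like rose by 5.25 ± 0.68 (SE, adjusted p = 0.000569), or by 5.89 without medium dose replicate 4. Like the other features that are not among the 15 largest changes in either direction, the 10 highest levels, the listed genes or the leading species differences, it was chosen after its values were seen.

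The CYP1A genes, which in birds respond to the aryl hydrocarbon receptor, rose together. Of 7 tested CYP1A names, between which the reads of a gene can be split, 6 rose. CYP1A5 was the most abundant, with 2893, 2762, 5906, 6934 and 2886 CPM in high dose replicates 1 to 5, against 671, 856, 1303, 942 and 714 CPM in medium dose replicates 1 to 5. The groups did not overlap, and high dose replicates 3 and 4 were well above the other high dose livers. Log2 fold changes were 2.25 ± 0.29 (SE, adjusted p = 0.000446) for CYP1A5, 2.20 ± 0.29 (SE, adjusted p = 0.000641) for CYP1A4 and 2.49 ± 0.29 (SE, adjusted p = 0.000202) for the feature named CYP1A1. High dose replicates 3 and 4 were the highest of their group for CYP1A4 and CYP1A1 as well. In contrast to the CYP2H genes, CYP1A transcripts were abundant at the medium dose, where CYP1A5 averaged 897 CPM and CYP2H1 7.51 CPM. They were abundant in control livers too, where the CYP1A names together took 0.133 ± 0.0228% of all counts. At the medium dose they took 0.1703 ± 0.0502% (SD, n = 5 each). The CYP4 family, mainly fatty acid hydroxylases, rose in 1 of 8 tested features. That feature, cytochrome P450 4B1-like, had a log2 fold change of 0.59 ± 0.14 (SE, adjusted p = 0.0460), a call that ended without high dose replicates 1, 3, 4 or 5 or medium dose replicates 1, 2, 4 or 5 (adjusted p up to 0.119).

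**Figure D2:**
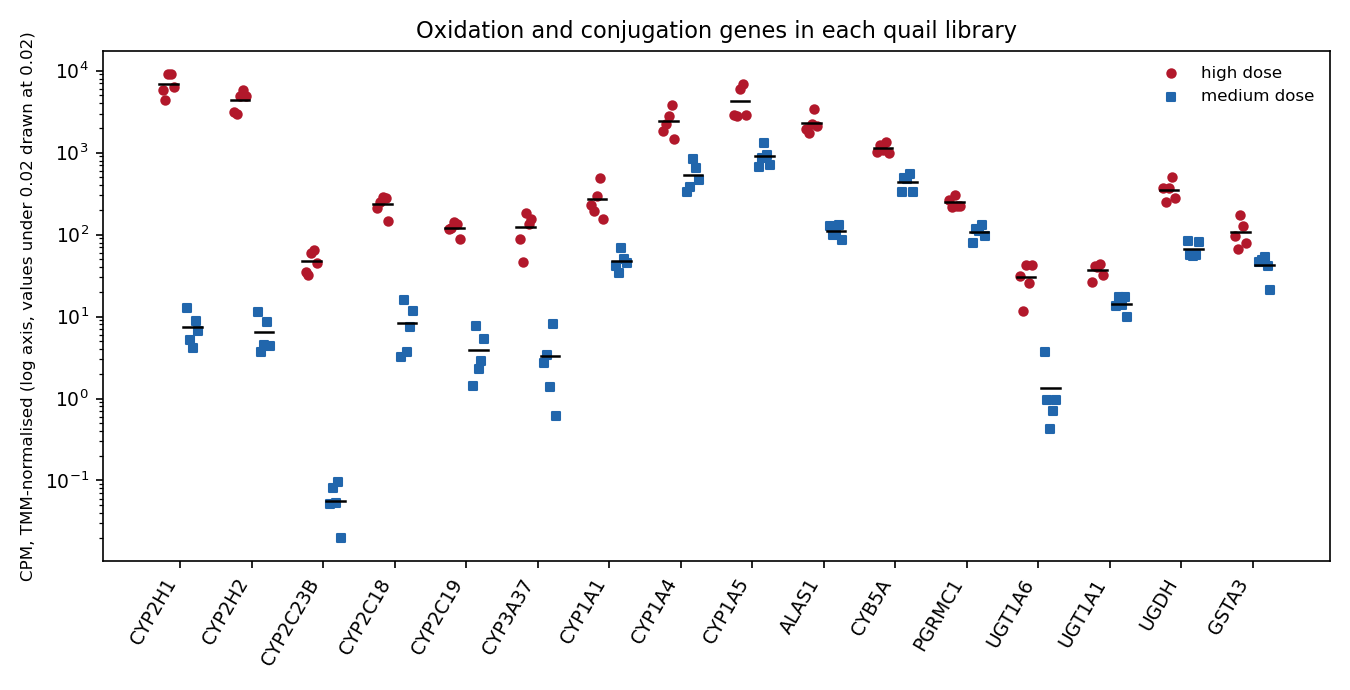
CPM (log axis) of 16 oxidation, heme and conjugation genes in each quail liver, high dose as red circles left of medium dose as blue squares, with black bars at the group means. In each gene all 5 high dose livers lie above all 5 medium dose livers, and the gap is widest for CYP2H1, CYP2H2 and CYP2C23B.

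Summed over all names, P450 transcripts took 2.96 ± 0.656% of all counts at the high dose and 0.484 ± 0.103% at the medium dose (SD, n = 5 each). They ran from 2.18 to 3.80% in the high dose livers and from 0.375 to 0.611% in the medium dose livers, without overlap, and the ratio of the means was 6.11. An exact two-sided permutation test gave p = 0.00794, the smallest that 5 against 5 libraries allow, and 0.0139 after Benjamini-Hochberg adjustment over the 14 families. The CYP2 names together took 1.998 ± 0.351% of all counts at the high dose and 0.264 ± 0.0625% at the medium dose, the CYP1A names 0.810 ± 0.301% of all counts at the high dose and 0.1703 ± 0.0502% at the medium dose and the CYP3A names 0.103 ± 0.0389% of all counts at the high dose and 0.0106 ± 0.00235% at the medium dose. Each of these sums was higher in 5 of 5 high dose livers than in any medium dose liver, with the same exact p = 0.00794. In the control livers the P450 names took 0.410 ± 0.0421%.

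**Figure D3:**
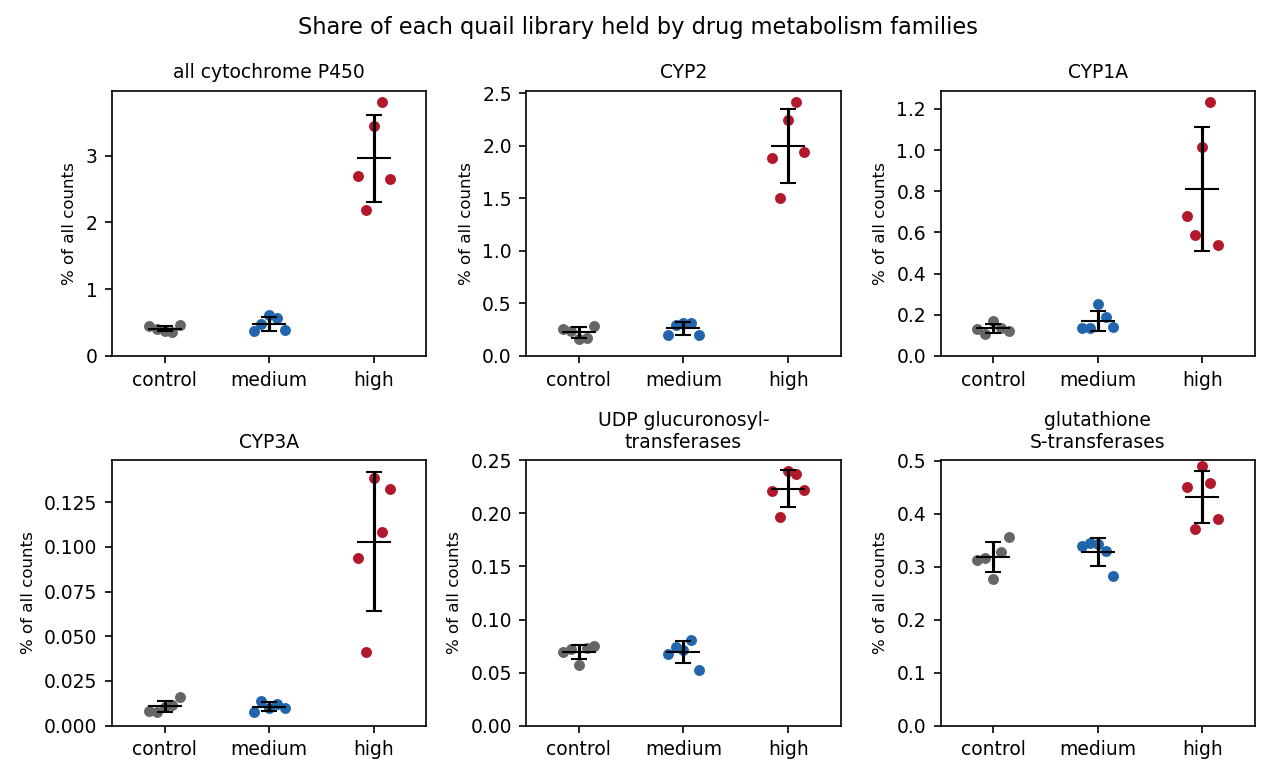
Percent of all counts of a library held by each family (vertical axes start at 0) in control, medium dose and high dose quail livers, 1 point per liver, with mean and SD in black. The high dose livers lie above the other 10 livers in every panel, for P450 at 2.18% or more against 0.611% or less at the medium dose.

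Genes that serve the P450 enzymes rose with them. ALAS1, the first and rate-limiting enzyme of heme synthesis, had 1941, 1727, 2249.9, 3451 and 2123 CPM in high dose replicates 1 to 5, against 127, 97.5, 108, 133 and 87.0 CPM in medium dose replicates 1 to 5. No high dose liver came near the medium dose range, and high dose replicate 4 was the highest of all. Its log2 fold change was 4.38 ± 0.25 (SE, adjusted p = 9.93e-08). Cytochrome b5 (CYB5A), which passes electrons to some P450 enzymes, averaged 1136 ± 152 CPM at the high dose and 434 ± 99.1 CPM at the medium dose, PGRMC1, a heme-binding membrane protein, 247 ± 38.5 CPM at the high dose and 108 ± 19.6 CPM at the medium dose, and POR, the reductase that passes electrons to P450, 117 ± 19.9 CPM at the high dose and 66.0 ± 7.25 CPM at the medium dose. Their log2 fold changes were 1.39 ± 0.15 (SE, adjusted p = 9.84e-05), 1.201 ± 0.13 (SE, adjusted p = 9.28e-05) and 0.82 ± 0.11 (SE, adjusted p = 0.000974), and all 5 high dose livers exceeded all 5 medium dose livers in each. Of the 33 tested genes of P450 and microsomal oxidation, 17 rose, none fell and 16 did not pass the test, with a median log2 fold change of 1.27.

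Few other genes of the heme and iron list passed the test. Of its 33 tested genes, 2 rose, 1 fell and the median log2 fold change was -0.019. FTH1, the ferritin heavy chain that stores iron, had 7996, 8464, 18471, 9707 and 8170.4 CPM in high dose replicates 1 to 5, against 6068, 6012, 4099.8, 4484 and 5966 CPM in medium dose replicates 1 to 5. High dose replicate 3 was far above its group, and the other 4 high dose livers also lay above every medium dose liver. FTH1 rose by 0.99 ± 0.22 (SE, adjusted p = 0.0337), a call that ended without medium dose replicates 2, 3, 4 or 5 (adjusted p up to 0.0890). SLC25A39, a mitochondrial carrier, had 84.4 against 65.7 CPM at the high and medium dose and was not called (log2 fold change 0.36, adjusted p = 0.0720). Melanotransferrin (MELTF), an iron-binding surface protein outside that list, rose by 2.16 ± 0.38 (SE, adjusted p = 0.00774) at a level of 38.9 ± 21.1 CPM at the high dose and 8.68 ± 4.14 CPM at the medium dose.

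Some genes beside ALAS1 in the genome rose as well. In the gene order of the RefSeq quail assembly, the genes around ALAS1 include TEX264 and GRM2 on one side and TWF2 on the other. TEX264, a receptor for the degradation of endoplasmic reticulum by autophagy, had 48.7, 39.1, 48.2, 54.9 and 41.0 CPM in high dose replicates 1 to 5, against 19.5, 26.1, 30.3, 24.1 and 27.8 CPM in medium dose replicates 1 to 5. TWF2, an actin-binding twinfilin, had 30.0, 38.0, 44.1, 40.7 and 28.1 CPM in high dose replicates 1 to 5, against 21.4, 16.4, 23.1, 20.0 and 16.3 CPM in medium dose replicates 1 to 5. The groups did not overlap in either gene, although the rises were small. Log2 fold changes were 0.86 ± 0.12 (SE, adjusted p = 0.000865) for TEX264 and 0.89 ± 0.13 (SE, adjusted p = 0.00180) for TWF2. GRM2, a glutamate receptor, rose by 3.70 ± 0.58 (SE, adjusted p = 0.00324) from very few reads, 101 counts over the high dose livers and 6 over the medium dose livers. Counted in genes from ALAS1, GRM2 stands at place -3 and TEX264 at -4, with TWF2 at place 1 on the other side. The genes between GRM2 and ALAS1 have no value here, so the run of neighbours is not complete. On the TWF2 side, PPM1M at place 2 had a log2 fold change of 0.53 (adjusted p = 0.0699). WDR82 at place 3 had 0.028 (0.935) and GLYCTK at place 4 had 0.38 (0.266). RHOA, GPX1, USP4 and PHF7 were not called either, with adjusted p of 0.828 to 0.945. The counting is not stated to use strand, so reads that run on from ALAS1 or come from an overlapping transcript cannot be told apart from these genes' own. These neighbours were chosen after their values were seen.

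**Figure D4:**
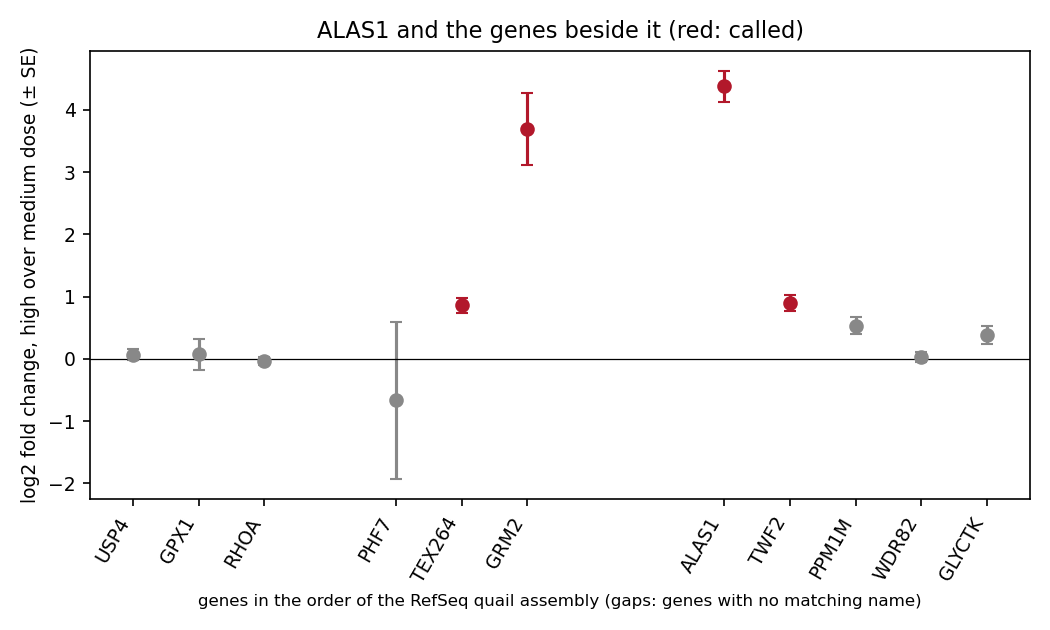
Log2 fold change of the high over the medium dose with SE (vertical axis) for ALAS1 and tested genes beside it, in their order in the RefSeq assembly with no distances drawn (horizontal axis). Called features are red: TEX264 and TWF2 stand near 0.86 and 0.89, GRM2 at 3.70 and ALAS1 at 4.38, while the other genes are not called. No point is drawn for the genes between GRM2 and ALAS1.

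Conjugation genes rose mainly in the glucuronidation branch. UGT1A6 had 31.1, 11.8, 42.6, 25.6 and 42.0 CPM in high dose replicates 1 to 5, against 3.71, 0.961, 0.423, 0.713 and 0.959 CPM in medium dose replicates 1 to 5. Medium dose replicate 1 was well above the other medium dose livers and below every high dose liver. UGT1A6 rose by 4.49 ± 0.50 (SE, adjusted p = 0.000157), and the feature named UGT1-6-like by 5.03 ± 0.61 (SE, adjusted p = 0.000333). Without medium dose replicate 1 the rises were 5.33 (adjusted p = 7.70e-06) and 6.08 (adjusted p = 1.85e-05). The most abundant glucuronosyltransferase name, UGT1-1-like, averaged 1123 ± 152 CPM at the high dose and 364 ± 77.2 CPM at the medium dose and rose by 1.63 ± 0.14 (SE, adjusted p = 1.76e-05). UGT1A1, which conjugates bilirubin in mammals, rose by 1.37 ± 0.20 (SE, adjusted p = 0.00180). The call of UGT1A8, at 1.95 against 0.607 CPM with a log2 fold change of 1.68 ± 0.39 (SE, adjusted p = 0.0379), ended without high dose replicates 3, 4 or 5 or medium dose replicates 1, 2, 3 or 5 (adjusted p up to 0.103). All glucuronosyltransferase names together took 0.223 ± 0.0173% of all counts at the high dose and 0.0694 ± 0.0105% at the medium dose, with an exact permutation p = 0.00794. UGDH, which makes the UDP-glucuronic acid these enzymes use, had 367, 251, 373, 499 and 280.4 CPM in high dose replicates 1 to 5, against 83.3, 56.3, 54.7, 55.6 and 81.9 CPM in medium dose replicates 1 to 5. Its log2 fold change was 2.42 ± 0.21 (SE, adjusted p = 1.76e-05), with all 5 high dose livers above the medium dose range.

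Glutathione and sulfate transfer moved in single genes. Of 21 tested glutathione S-transferase features 3 rose. GSTA3, an alpha class transferase, rose by 1.37 ± 0.29 (SE, adjusted p = 0.0267) at 109 against 42.0 CPM, a call that ended without high dose replicates 3 or 4 or medium dose replicates 2, 4 or 5 (adjusted p up to 0.0714). The feature named glutathione S-transferase-like averaged 882 ± 344 CPM at the high dose and 359.7 ± 76.0 CPM at the medium dose and rose by 1.29 ± 0.24 (SE, adjusted p = 0.0115). The sum of the family was 0.432 ± 0.0494% of all counts at the high dose and 0.328 ± 0.0261% at the medium dose, a ratio of 1.32 (exact p = 0.00794). HPGDS, a sigma class transferase that makes prostaglandin D, rose by 2.08 ± 0.50 (SE, adjusted p = 0.0491), and its call ended without high dose replicates 1, 3, 4 or 5 or medium dose replicates 1, 2, 3 or 5 (adjusted p up to 0.128). Among sulfotransferases of small molecules 3 of 18 rose, led by level by the feature named amine sulfotransferase-like, at a level of 730.5 ± 264 CPM at the high dose and 147 ± 54.8 CPM at the medium dose with a log2 fold change of 2.31 ± 0.29 (SE, adjusted p = 0.000446). The others called were SULT3A1, from the name amine sulfotransferase, and a name sulfotransferase family 3A, member 1-like. Reads can be split between such similar names, so the 3 are not independent results. SULT3A1 rose by 2.15 ± 0.29 (SE, adjusted p = 0.000750). The sum of the sulfotransferases nevertheless had a lower mean at the high dose, at 0.271 ± 0.0881% of all counts at the high dose and 0.395 ± 0.0555% at the medium dose (exact permutation p = 0.0397, adjusted p = 0.0463). The groups overlapped, with high dose replicate 2 at 0.419% and the medium dose livers from 0.323 to 0.454%. A sulfotransferase 6B1-like feature with a log2 fold change of -1.03 that was not called (adjusted p = 0.123) was the most abundant name of the family. Over the 27 tested genes of the conjugation list, 6 rose, none fell and the median log2 fold change was 0.11. Epoxide hydrolase 1-like, which opens epoxides left by P450, rose by 0.86 ± 0.15 (SE, adjusted p = 0.00745) at a level of 888 ± 142 CPM at the high dose and 489.6 ± 115 CPM at the medium dose.

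Efflux pump names of the ABCB1 and ABCB4 type rose. Reads can be split between such similar names, so they are not independent results. Other names of the ABCB group were not called, among them ABCB11 with a log2 fold change of -0.19 (adjusted p = 0.795). ATP-dependent translocase ABCB1-like had 0.54 (0.255) and multidrug resistance protein 1B-like had 0.81 (0.231). ABCB1, the multidrug pump, had 109.7, 93.5, 181, 117 and 140.4 CPM in high dose replicates 1 to 5, against 48.4, 63.8, 50.4, 76.8 and 35.7 CPM in medium dose replicates 1 to 5. The high dose values lay above every medium dose value, and the log2 fold change was 1.22 ± 0.22 (SE, adjusted p = 0.00917). A second name for the same pump, ATP-dependent translocase ABCB1, rose by 1.28 ± 0.21 (SE, adjusted p = 0.00436). ABCB4, a phospholipid pump of bile, rose by 1.12 ± 0.24 (SE, adjusted p = 0.0250) at 3.71 against 1.69 CPM, a call that ended without high dose replicates 3, 4 or 5 or medium dose replicates 1, 3 or 5 (adjusted p up to 0.0732). ABCC2, which exports glucuronides into bile, had 336 against 234 CPM and SLC51B, part of a bile acid exporter, 38.4 against 7.86 CPM at the high and medium dose. Neither was called: the log2 fold change was 0.53 for ABCC2 (adjusted p = 0.0744) and 2.28 for SLC51B (adjusted p = 0.0690). Of the 22 tested ABC and organic ion transporters 2 rose and none fell. Over all 50 tested names of the ABC family 5 rose and 2 fell, ABCA13 (described below) and ABCA2, a lipid transporter of lysosomes, which averaged 43.1 ± 5.32 CPM at the high dose and 59.8 ± 3.23 CPM at the medium dose and fell with -0.47 ± 0.085 (SE, adjusted p = 0.00788). In the bile acid list, 2 of 19 rose, ABCB4 and AKR1D1. AKR1D1, the reductase that shapes the bile acid ring, had 737, 1094, 1296, 1818 and 1050.2 CPM in high dose replicates 1 to 5, against 204, 501, 490.2, 349 and 503 CPM in medium dose replicates 1 to 5 and a log2 fold change of 1.55 ± 0.27 (SE, adjusted p = 0.00757). SLC22A16, an organic cation and carnitine carrier outside the list, rose by 1.65 ± 0.18 (SE, adjusted p = 9.84e-05) at a level of 23.7 ± 5.96 CPM at the high dose and 7.55 ± 1.60 CPM at the medium dose.

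Antioxidant genes rose in 3 of 44 tested members, with a median log2 fold change of 0.25 and 34 of 44 values above 0. OSGIN1, a growth inhibitor that responds to oxidative stress, had 112, 194, 245.3, 257 and 138 CPM in high dose replicates 1 to 5, against 73.2, 63.7, 88.3, 72.4 and 75.4 CPM in medium dose replicates 1 to 5. It rose by 1.34 ± 0.20 (SE, adjusted p = 0.00183) with no overlap between the groups. GCLC, the catalytic subunit of the enzyme that starts glutathione synthesis, had 71.9, 42.1, 47.3, 40.5 and 42.3 CPM in high dose replicates 1 to 5, against 20.8, 17.1, 24.3, 30.2 and 18.5 CPM in medium dose replicates 1 to 5. High dose replicate 1 stood highest, and the other high dose livers still exceeded all medium dose livers. GCLC rose by 1.14 ± 0.18 (SE, adjusted p = 0.00355), and by 0.96 (adjusted p = 0.00365) without high dose replicate 1. Its regulatory subunit GCLM was above the medium dose range in 5 of 5 high dose livers but was not called, at a log2 fold change of 0.69 ± 0.17 (SE, adjusted p = 0.0528). IDH1, a cytosolic source of NADPH, rose by 1.24 ± 0.27 (SE, adjusted p = 0.0267) at a level of 1117 ± 546 CPM at the high dose and 473 ± 111 CPM at the medium dose, a call that ended without high dose replicate 5 or medium dose replicates 2, 3 or 4 (adjusted p up to 0.0689).

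Among the esterases and paraoxonases, which bind or hydrolyse organophosphates, 1 of 22 tested rose and none fell, and the median log2 fold change was -0.13. Butyrylcholinesterase (BCHE), a blood esterase that the oxon inhibits, had 32.7, 35.5, 39.1, 42.7 and 35.5 CPM in high dose replicates 1 to 5, against 35.5, 34.1, 46.4, 42.7 and 46.6 CPM in medium dose replicates 1 to 5. The groups overlapped, with a log2 fold change of -0.14 ± 0.12 (SE, adjusted p = 0.685). PON1, the plasma paraoxonase, averaged 139 ± 17.97 CPM at the high dose and 187 ± 31.5 CPM at the medium dose, and PON2 278 ± 52.0 CPM at the high dose and 364 ± 43.8 CPM at the medium dose. Their log2 fold changes of -0.43 and -0.39 were not called (adjusted p = 0.178 and 0.176), and in each gene 3 of 5 high dose livers were below the medium dose range. PNPLA6, the neuropathy target esterase, had a log2 fold change of -0.21 (0.546), PNPLA7 -0.19 (0.563), the arylacetamide deacetylase AADAC 0.47 (0.381), ESD 0.38 (0.221), LYPLA1 -0.12 (0.693) and LYPLA2 0.18 (0.562). The member that rose was the phospholipase DDHD1, at 17.1 against 8.81 CPM and by 0.96 ± 0.21 (SE, adjusted p = 0.0266), and its call ended without high dose replicates 1 or 5 or medium dose replicates 2, 3, 4 or 5 (adjusted p up to 0.0677).

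Lipid genes moved in both directions. PPARG, a nuclear receptor that promotes fat storage, had 5.16, 3.66, 5.91, 3.99 and 5.28 CPM in high dose replicates 1 to 5, against 1.31, 1.12, 1.01, 1.62 and 1.57 CPM in medium dose replicates 1 to 5, and ELOVL5, which lengthens polyunsaturated fatty acids, had 90.8, 38.6, 53.02, 51.8 and 27.6 CPM in high dose replicates 1 to 5, against 9.15, 7.41, 12.1, 14.1 and 13.96 CPM in medium dose replicates 1 to 5. In both genes the groups were apart, and high dose replicate 1 was the highest of its group for ELOVL5. PPARG rose by 1.86 ± 0.23 (SE, adjusted p = 0.000412) and ELOVL5 by 2.21 ± 0.28 (SE, adjusted p = 0.000446). ACACB, an acetyl-CoA carboxylase, rose by 1.80 ± 0.43 (SE, adjusted p = 0.0441), with a call that ended without high dose replicates 3, 4 or 5 or medium dose replicates 1, 2, 3 or 5 (adjusted p up to 0.107). FABP1, the liver fatty acid binding protein, had 65.9, 71.03, 30.7, 61.6 and 28.7 CPM in high dose replicates 1 to 5, against 29.1, 258, 249, 263 and 158 CPM in medium dose replicates 1 to 5. Medium dose replicate 1, the liver with muscle markers, was as low as the lowest high dose livers, and the other 4 medium dose livers were above all high dose livers. FABP1 fell, with a log2 fold change of -1.89 ± 0.44 (SE, adjusted p = 0.0427), and its call ended without high dose replicates 1, 3, 4 or 5 or medium dose replicates 2, 3, 4 or 5 (adjusted p up to 0.108). MOGAT1, which builds diacylglycerol, had -0.84 ± 0.20 (SE, adjusted p = 0.0488), and its call ended without high dose replicates 1, 2, 3, 4 or 5 or medium dose replicates 2, 3 or 4 (adjusted p up to 0.128) and with relative log expression size factors. Of 36 tested genes of fatty acid and triglyceride synthesis 3 rose and 2 fell. In fatty acid oxidation 2 of 42 rose and 1 fell. EHHADH, a peroxisomal enzyme, rose by 0.90 ± 0.14 (SE, adjusted p = 0.00285) with 442, 273, 301, 301 and 269.6 CPM in high dose replicates 1 to 5, against 161, 186, 149, 211 and 143 CPM in medium dose replicates 1 to 5. High dose replicate 1 was the highest, and leaving it out gave a log2 fold change of 0.75 (adjusted p = 0.00217). ACADL, a mitochondrial dehydrogenase, fell with a log2 fold change of -0.63 ± 0.13 (SE, adjusted p = 0.0197), a call that ended without high dose replicate 3 or medium dose replicate 3 (adjusted p up to 0.0622). ACAD11 rose by 0.49 ± 0.12 (SE, adjusted p = 0.0488), a call that ended without high dose replicates 1, 2, 4 or 5 or medium dose replicates 1, 2, 3, 4 or 5 (adjusted p up to 0.132).

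HMGCS1, an early enzyme of cholesterol synthesis, had 188, 105, 324, 244 and 648 CPM in high dose replicates 1 to 5, against 153, 71.4, 74.8, 65.7 and 82.6 CPM in medium dose replicates 1 to 5. High dose replicate 5 was the highest and high dose replicate 2 fell within the medium dose range, which medium dose replicate 1 extended upwards. HMGCS1 rose by 1.76 ± 0.40 (SE, adjusted p = 0.0368), and the call ended without high dose replicates 3 or 5 or medium dose replicates 2, 3, 4 or 5 (adjusted p up to 0.0969). It was the 1 gene called among 35 tested of cholesterol synthesis and lipoproteins. FABP7, another fatty acid binding protein, averaged 82.5 ± 42.6 CPM at the high dose and 24.3 ± 5.40 CPM at the medium dose and rose by 1.76 ± 0.30 (SE, adjusted p = 0.00637), and MPC1, a subunit of the mitochondrial pyruvate carrier, averaged 633 ± 107 CPM at the high dose and 327 ± 88.4 CPM at the medium dose and rose by 0.95 ± 0.18 (SE, adjusted p = 0.0104). In glycolysis and glycogen metabolism 2 of 46 genes rose, G6PC1, which releases glucose, by 0.62 ± 0.15 (SE, adjusted p = 0.0427) and PGM2 by 1.05 ± 0.25 (SE, adjusted p = 0.0430). The call of G6PC1 ended without high dose replicates 3, 4 or 5 or medium dose replicates 1, 3, 4 or 5 (adjusted p up to 0.107) and that of PGM2 without high dose replicates 3, 4 or 5 or medium dose replicates 1, 4 or 5 (adjusted p up to 0.108).

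Nuclear receptors and coregulators included 2 genes that rose, PPARG and HNF4A, and 1 that fell, NR0B1, among 44 tested. HNF4A, a regulator of hepatocyte identity, averaged 56.9 ± 18.999 CPM at the high dose and 28.6 ± 6.01 CPM at the medium dose and rose by 0.99 ± 0.23 (SE, adjusted p = 0.0439), a call that ended without high dose replicates 1, 3 or 4 or medium dose replicates 1, 2, 3, 4 or 5 (adjusted p up to 0.108). NR0B1, a repressor receptor known from adrenal and gonad, had 2.51, 3.21, 1.05, 1.5005 and 0.528 CPM in high dose replicates 1 to 5, against 5.91, 11.6, 4.604, 9.74 and 11.1 CPM in medium dose replicates 1 to 5. All high dose livers were below all medium dose livers, with a log2 fold change of -2.30 ± 0.43 (SE, adjusted p = 0.0123). The 4 tested gonad and adrenal markers, of which NR0B1 is one, averaged 0.90, 1.33, 0.35, 0.56 and 0.53 log2 CPM in high dose replicates 1 to 5, against 1.26, 1.60, 1.25, 1.59 and 1.79 in medium dose replicates 1 to 5. NR0B1 was the only called member of that list, and the list mean includes its fall. Over the high and medium dose livers NR0B1 had 187 and 821 counts and CYP21A2 476 and 516. CYP17A1 had 124 and 149, and NR5A1 100 and 71. The part of such tissue in the NR0B1 result was not tested.

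Secreted proteins of the liver accounted for several falls. Complement C3, the hub of the complement cascade, had 29.6, 90.6, 91.4, 82.7 and 88.8 CPM in high dose replicates 1 to 5, against 152, 394, 659, 382 and 2069.5 CPM in medium dose replicates 1 to 5. High dose replicate 1 was the lowest and medium dose replicate 5 the highest, and the groups did not overlap. C3 fell with a log2 fold change of -3.25 ± 0.63 (SE, adjusted p = 0.0150), with -3.04 (adjusted p = 0.0284) without high dose replicate 1 and with -2.37 (adjusted p = 0.0256) without medium dose replicate 5. A feature named complement C3-like fell with -3.14 ± 0.67 (SE, adjusted p = 0.0259), a call that ended without high dose replicates 3, 4 or 5 or medium dose replicates 3 or 5 (adjusted p up to 0.0628), and its value was -2.39 (adjusted p = 0.0534) without medium dose replicate 5. C8G, a subunit of the terminal complex, fell with -0.86 ± 0.20 (SE, adjusted p = 0.0436), a call that ended without high dose replicates 2, 3, 4 or 5 or medium dose replicates 2, 3 or 4 (adjusted p up to 0.114). Of 24 tested complement genes 2 fell and none rose, with a median log2 fold change of -0.23. C6 and C8B, at -2.04 and -1.31, were not called (adjusted p = 0.126 and 0.190).

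TF, the iron carrier of plasma and egg white, had 23475, 34891, 24459, 35593 and 19448 CPM in high dose replicates 1 to 5, against 43693, 50302, 40345, 48282 and 57842 CPM in medium dose replicates 1 to 5. The 5 high dose livers lay below the 5 medium dose livers, and TF fell with a log2 fold change of -0.80 ± 0.19 (SE, adjusted p = 0.0412), a call that ended without high dose replicates 1, 3 or 5 or medium dose replicates 2, 3, 4 or 5 (adjusted p up to 0.105). AGT, the precursor of angiotensin, had 161, 479, 296, 342 and 182 CPM in high dose replicates 1 to 5, against 431, 839.5, 667, 755 and 747 CPM in medium dose replicates 1 to 5. High dose replicate 2 reached into the medium dose range, whose lowest value was that of replicate 1. AGT fell with -1.24 ± 0.28 (SE, adjusted p = 0.0341), a call that ended without high dose replicates 1, 3, 4 or 5 or medium dose replicates 2, 3, 4 or 5 (adjusted p up to 0.0817). A2ML1, a protease inhibitor, fell with -1.34 ± 0.32 (SE, adjusted p = 0.0481) at a level of 586 ± 281 CPM at the high dose and 1486 ± 602 CPM at the medium dose, a call that ended without high dose replicates 1, 2, 3 or 5 or medium dose replicates 2, 3, 4 or 5 (adjusted p up to 0.118). Plasma proteins as a list had 2 of 40 genes lower, none higher, a median log2 fold change of -0.31 and 30 of 40 values below 0. The heme-binding plasma protein hemopexin (HPX) had 1.87, 2.48, 1.001, 3.60 and 0.414 CPM in high dose replicates 1 to 5, against 0.627, 7.81, 5.87, 3.18 and 214 CPM in medium dose replicates 1 to 5, so that medium dose replicate 5 alone held most of the medium dose level, and it was not called (log2 fold change -4.62, adjusted p = 0.123). Clotting genes had 25 of 32 values below 0, a median of -0.25 and 1 call, the rise of the protease HABP2 by 1.38 ± 0.34 (SE, adjusted p = 0.0497), which ended without high dose replicates 2, 3, 4 or 5 or medium dose replicates 1, 2, 3, 4 or 5 (adjusted p up to 0.128) and with relative log expression size factors. Plasminogen (PLG) averaged 1701 ± 457 CPM at the high dose and 2784 ± 451 CPM at the medium dose and factor XII (F12) 415 ± 107 CPM at the high dose and 696 ± 159.9 CPM at the medium dose, with adjusted p of 0.0575 and 0.0563. Hepatocyte markers as a list averaged 9.27, 9.73, 9.82, 9.74 and 9.68 log2 CPM in high dose replicates 1 to 5, against 9.64, 9.996, 9.90, 9.69 and 10.23 in medium dose replicates 1 to 5, with an exact permutation p = 0.151. TF and HPX are themselves members of that list, so its mean is not independent of their values. The part of hepatocyte content in these falls was not tested.

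**Figure D5:**
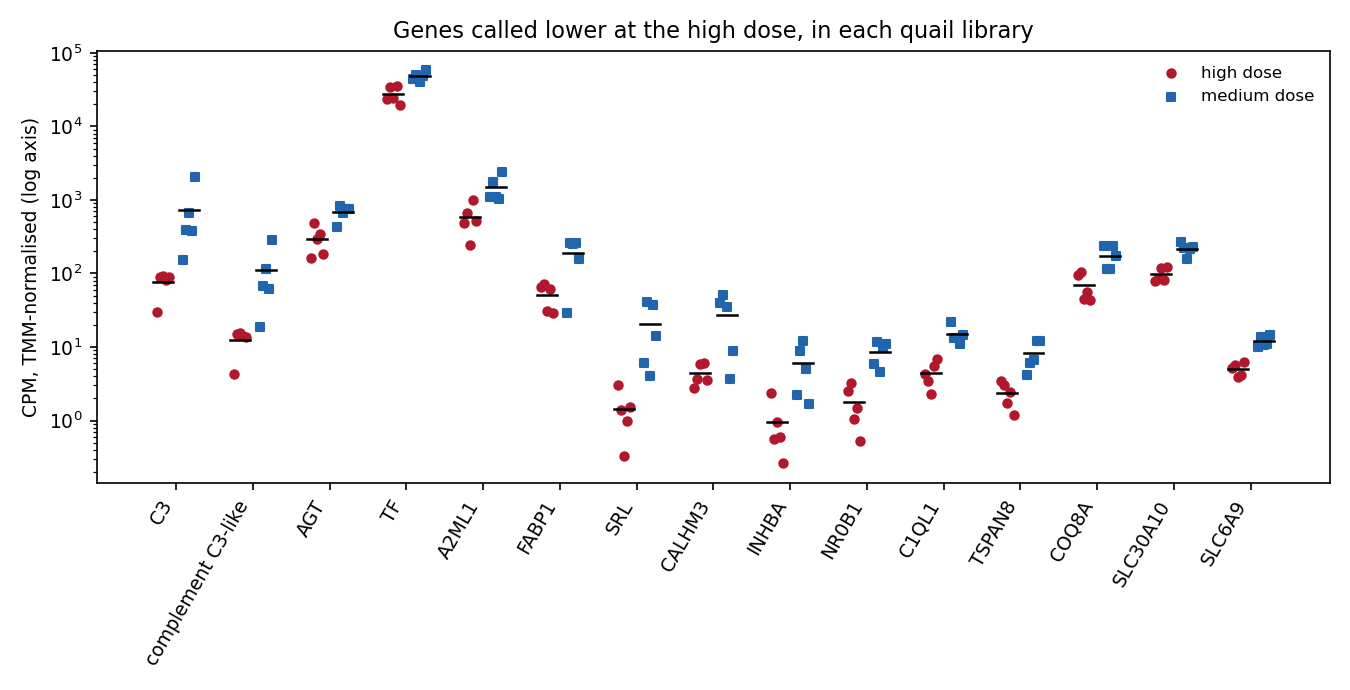
CPM (log axis) of 15 features called lower at the high dose in each quail liver, high dose as red circles left of medium dose as blue squares, with black bars at the group means. The groups do not overlap for TF and C3, and they overlap for AGT, FABP1, INHBA and CALHM3.

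Several of the largest falls, among them that of ABCA13, were in genes of low level. ABCA13, a large lipid transporter of the ABC family, had 0.0426, 0.113, 0.0954, 0.0857 and 0.0754 CPM in high dose replicates 1 to 5, against 11.03, 8.37, 0.265, 2.95 and 3.49 CPM in medium dose replicates 1 to 5. High dose livers all lay under 0.2 CPM while medium dose livers spread widely, with 0 to 13.7 CPM in the 5 control livers. ABCA13 fell with -5.92 ± 1.42 (SE, adjusted p = 0.0477), a call that ended without high dose replicates 1, 2, 3, 4 or 5 or medium dose replicates 1, 2, 4 or 5 (adjusted p up to 0.116). Sarcalumenin (SRL), a calcium-binding protein of the sarcoplasmic reticulum, had 3.03, 1.41, 0.334, 0.986 and 1.51 CPM in high dose replicates 1 to 5, against 6.07, 41.3, 4.08, 37.8 and 14.2 CPM in medium dose replicates 1 to 5, with a log2 fold change of -3.82 ± 0.68 (SE, adjusted p = 0.00788). The medium dose library with the highest muscle markers, replicate 1, had one of the lower SRL values of its group. The part of muscle tissue in the SRL values was not tested. CALHM3, a subunit of a calcium-regulated channel, averaged 4.39 ± 1.5003 CPM at the high dose and 27.6 ± 20.4 CPM at the medium dose and fell with -2.66 ± 0.62 (SE, adjusted p = 0.0427), a call that ended without high dose replicates 1, 2, 3, 4 or 5 or medium dose replicates 1, 2 or 3 (adjusted p up to 0.105). TSPAN8, a tetraspanin, fell with -1.78 ± 0.33 (SE, adjusted p = 0.0111), and C1QL1, a secreted C1q-like protein, with -1.73 ± 0.27 (SE, adjusted p = 0.00355), and neither gene had overlapping groups. CPLX2, a complexin of synaptic vesicle release, fell with -1.90 ± 0.37 (SE, adjusted p = 0.0159) at 0.357 against 1.36 CPM. GMPR, which converts GMP to IMP, fell with -1.497 ± 0.29 (SE, adjusted p = 0.0146), and COQ8A, needed for coenzyme Q synthesis, with -1.35 ± 0.28 (SE, adjusted p = 0.0245). The call of COQ8A ended without high dose replicates 3, 4 or 5 or medium dose replicates 1 or 4 (adjusted p up to 0.0677). The feature named myeloid-associated differentiation marker homolog had -1.49 ± 0.32 (SE, adjusted p = 0.0234), and its call ended without high dose replicates 1, 3 or 4 or medium dose replicates 2 or 3 (adjusted p up to 0.0667). The glycine transporter SLC6A9 averaged 5.03 ± 0.973 CPM at the high dose and 11.9 ± 1.92 CPM at the medium dose and fell with -1.24 ± 0.22 (SE, adjusted p = 0.00761), and the manganese exporter SLC30A10 averaged 97.1 ± 21.3 CPM at the high dose and 218 ± 41.4 CPM at the medium dose and fell with -1.16 ± 0.16 (SE, adjusted p = 0.00120), both without overlap.

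Growth and stress signals changed in few genes. INHBA, the activin A subunit, had 2.39, 0.563, 0.954, 0.6002 and 0.264 CPM in high dose replicates 1 to 5, against 2.20, 8.77, 12.2, 4.99 and 1.66 CPM in medium dose replicates 1 to 5. High dose replicate 1 lay above medium dose replicates 1 and 5, and the other high dose livers were below every medium dose liver. INHBA fell with -2.65 ± 0.62 (SE, adjusted p = 0.0414), a call that ended without high dose replicates 2, 3, 4 or 5 or medium dose replicates 2, 3 or 4 (adjusted p up to 0.104), and with -3.35 (adjusted p = 0.0129) without high dose replicate 1. INHBC, a related liver activin subunit, had 46.0 against 172 CPM at the high and medium dose and was not called (-1.90 ± 0.47 (SE, adjusted p = 0.0563)). IRS2, which passes on the insulin signal, rose by 1.42 ± 0.29 (SE, adjusted p = 0.0188) at a level of 33.6 ± 13.9 CPM at the high dose and 12.6 ± 4.09 CPM at the medium dose, a call that ended without medium dose replicate 2 (adjusted p up to 0.0546). GADD45A, a stress and DNA damage gene, averaged 17.6 ± 2.45 CPM at the high dose and 11.5 ± 1.46 CPM at the medium dose and rose by 0.62 ± 0.11 (SE, adjusted p = 0.00917), while its relative GADD45B averaged 2.54 ± 0.656 CPM at the high dose and 5.45 ± 1.47 CPM at the medium dose and fell with -1.10 ± 0.22 (SE, adjusted p = 0.0171). Both had groups without overlap. Ubiquitin precursors rose in 3 of 5 names, the feature polyubiquitin by 0.56 ± 0.11 (SE, adjusted p = 0.0129) and polyubiquitin C-like by 0.46 ± 0.099 (SE, adjusted p = 0.0250). The call of polyubiquitin C-like ended without high dose replicates 3, 4 or 5 or medium dose replicates 2, 4 or 5 (adjusted p up to 0.0725). ADSL, an enzyme of purine synthesis, averaged 1472 ± 350.2 CPM at the high dose and 789 ± 176 CPM at the medium dose and rose by 0.90 ± 0.18 (SE, adjusted p = 0.0173), a call that ended without medium dose replicates 4 or 5 (adjusted p up to 0.0523).

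Other large rises were in genes outside the lists of drug metabolism. TPPP, which binds and bundles tubulin, had 16.0, 2.53, 19.6, 10.4 and 30.1 CPM in high dose replicates 1 to 5, against 0.157, 0.240, 0.423, 0 and 0.174 CPM in medium dose replicates 1 to 5. TMEM139, a membrane protein, had 5.07, 0.901, 12.9, 9.30 and 31.2 CPM in high dose replicates 1 to 5, against 0.366, 0.280, 0.423, 0.380 and 0.262 CPM in medium dose replicates 1 to 5. In both genes high dose replicate 2 was the lowest of its group and replicate 5 the highest, and neither group overlapped the other. TPPP rose by 6.26 ± 0.67 (SE, adjusted p = 0.00010002) and TMEM139 by 5.08 ± 0.72 (SE, adjusted p = 0.00120), and TMEM139 by 4.33 (adjusted p = 0.000960) without high dose replicate 5. A gastrin and cholecystokinin-like peptide had 11.2, 5.46, 147, 29.4 and 236 CPM in high dose replicates 1 to 5, against 9.20, 1.32, 0.582, 0.428 and 0.262 CPM in medium dose replicates 1 to 5. High dose replicate 2 fell below medium dose replicate 1, so the groups overlapped. Its log2 fold change was 5.15 ± 1.14 (SE, adjusted p = 0.0343), and the call ended without high dose replicates 3 or 5 or medium dose replicates 2, 3, 4 or 5 (adjusted p up to 0.0937). Its value was 4.32 without high dose replicate 5 and 6.92 without medium dose replicate 1. TSKU, a secreted protein made by liver, averaged 326 ± 61.3 CPM at the high dose and 57.2 ± 16.9 CPM at the medium dose and rose by 2.51 ± 0.30 (SE, adjusted p = 0.000333). NPTX2, a secreted neuronal pentraxin, averaged 3.50 ± 1.41 CPM at the high dose and 0.511 ± 0.199 CPM at the medium dose and rose by 2.80 ± 0.35 (SE, adjusted p = 0.000412).

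Several carriers of kidney tubule rose in the fit with all libraries, and their size rested on high dose replicate 1, the liver with kidney markers. SLC34A1, the phosphate carrier of the proximal tubule, had 1208, 12.6, 32.4, 17.96 and 11.3 CPM in high dose replicates 1 to 5, against 4.97, 2.88, 2.01, 4.37 and 2.53 CPM in medium dose replicates 1 to 5. The other 4 high dose livers were also above every medium dose liver. The log2 fold change was 6.24 ± 1.36 (SE, adjusted p = 0.0322) with all libraries and 2.46 (adjusted p = 0.00230) without high dose replicate 1, and the call ended without medium dose replicates 1, 2, 3, 4 or 5 (adjusted p up to 0.0872). PDZK1, a scaffold of such carriers, had 105, 14.9, 12.3, 15.6 and 3.05 CPM in high dose replicates 1 to 5, against 1.46, 1.72, 0.741, 1.28 and 2.18 CPM in medium dose replicates 1 to 5, with 4.37 ± 0.78 (SE, adjusted p = 0.00788) for all libraries and 2.97 (adjusted p = 0.00224) without high dose replicate 1. SLC3A1, part of a cystine carrier, rose by 3.07 ± 0.57 (SE, adjusted p = 0.0103) with all libraries and by 2.004 (adjusted p = 0.000813) without that liver, and SLC26A1, a sulfate carrier, by 3.81 ± 0.77 (SE, adjusted p = 0.0188) and 2.39 (adjusted p = 0.00879). The call of SLC26A1 in the full set ended without medium dose replicates 2, 3 or 4 (adjusted p up to 0.0567). All 5 high dose livers exceeded all 5 medium dose livers in these 4 genes. ASS1, an enzyme of arginine synthesis, had 250.1 CPM in high dose replicate 1, no other high dose liver exceeded 0.845 CPM, and it was not called and turned to a log2 fold change of -0.67 (adjusted p = 0.572) without that library. Of the other kidney markers, CUBN, the cubilin receptor, had 6514 of its 6572 high dose counts in replicate 1, and the salt carrier SLC12A3 1069 of 1159. SLC12A1, a salt carrier of the loop of the nephron, had 901 of its 987 high dose counts there but more counts, 2273, over the medium dose livers, with up to 846 in a single one of the other libraries. AQP2 had no count in any of the 10 livers.

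Bile duct markers had a higher mean level at the high dose, a difference that did not pass the adjustment over the marker lists. The 12 tested bile duct markers averaged 5.12, 4.34, 4.71, 4.62 and 4.37 log2 CPM in high dose replicates 1 to 5, against 4.10, 4.18, 4.17, 4.15 and 4.32 in medium dose replicates 1 to 5. Every high dose liver was above every medium dose liver, high dose replicate 1 most of all, and an exact permutation test gave p = 0.00794 (0.0675 adjusted over the 17 marker lists). Among the 12, GGT1 had 903 of its 947 high dose counts in replicate 1, the liver with kidney markers. It had 34 counts over the medium dose livers. How far GGT1 raised the mean of that liver was not tested. 2 of the 12 were called. Osteopontin (SPP1), also made by kidney tubule, had 187, 51.8, 62.2, 26.5 and 38.4 CPM in high dose replicates 1 to 5, against 28.03, 16.2, 14.4, 26.6 and 24.7 CPM in medium dose replicates 1 to 5 and rose by 1.74 ± 0.42 (SE, adjusted p = 0.0472), and its call ended without high dose replicate 3 or medium dose replicates 1, 2, 3, 4 or 5 (adjusted p up to 0.127). High dose replicate 4 lay within the medium dose range. Without high dose replicate 1, the liver with kidney markers, SPP1 rose by 1.03 (adjusted p = 0.0394). KRT19, a keratin of duct cells, averaged 32.3 ± 12.5 CPM at the high dose and 16.0 ± 4.00 CPM at the medium dose and rose by 1.01 ± 0.23 (SE, adjusted p = 0.0412), a call that ended without high dose replicates 3, 4 or 5 or medium dose replicates 1, 3, 4 or 5 (adjusted p up to 0.0949). The ductal markers KRT7 and CLDN4 were at or near 0 in all 10 livers. The part of duct cells in the other results was not tested. Other marker lists had lower means at the high dose. The 3 tested pancreas markers averaged 0.24 against 0.95 log2 CPM, with the same exact and adjusted p and summed levels of 7.59 CPM or less. The exact permutation p was 0.0238 (0.135 adjusted) for the gonad and adrenal list. It was 0.0476 (0.202 adjusted) for the granulocyte and thrombocyte list.

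Many lists held no called member. None of 58 cell division genes, 63 genes of oxidative phosphorylation, 70 cytosolic ribosomal proteins, 44 genes of amino acid metabolism, 37 of the stress of the endoplasmic reticulum, 36 chaperones, 26 of the interferon response, 26 of inflammation and 40 of the extracellular matrix was called by edgeR, while 2, 4, 2, 13, 6, 4, 5, 6 and 3 of them had an unadjusted p under 0.05. Over all features tested, 1998 of 14927 had an unadjusted edgeR p under 0.05 in this contrast. ATF4, a regulator of the amino acid response, averaged 154 ± 29.3 CPM at the high dose and 225 ± 32.6 CPM at the medium dose and ASNS, its target, 25.7 ± 7.53 CPM at the high dose and 44.8 ± 15.4 CPM at the medium dose, with adjusted p of 0.0849 and 0.118. Fibronectin (FN1) had 2897, 2634, 8691, 4689.9 and 7206 CPM in high dose replicates 1 to 5, against 3797, 1521, 1390.5, 1397 and 2372 CPM in medium dose replicates 1 to 5, with 3 of 5 high dose livers above the medium dose range and an adjusted p of 0.0693. IGFBP1, an insulin-like growth factor binding protein, ran from 25.6 to 223 CPM at the high dose and 6.56 to 32.1 CPM at the medium dose, and was not called (adjusted p = 0.0799). Of the 63 oxidative phosphorylation genes, which vary together within a liver, 52 had values below 0, with a median of -0.10, and 66 of 70 ribosomal protein genes had values above 0, with a median of 0.11. The mean level of the ribosomal protein list was 9.14 ± 0.16 log2 CPM at the high dose and 9.03 ± 0.19 log2 CPM at the medium dose (SD, n = 5 each, exact permutation p = 0.381). The groups overlapped, and medium dose replicate 1 was the lowest, at 8.71 against 9.05 to 9.19 in the other medium dose livers.

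Set beside the control livers, with which both contrasts share libraries, the medium dose was near the control level. The fit called no feature at the medium dose against control, with 646 of 14927 at an unadjusted p under 0.05 and a smallest adjusted p of 0.603, against 3.56% called at the high dose against control. CYP2H1 averaged 3.39 CPM in control, 7.51 CPM in medium dose and 6908 CPM in high dose livers. Its log2 fold change at the medium dose against control was 1.18 ± 0.53 (SE, adjusted p = 0.999). ALAS1 averaged 116, 111 and 2298 CPM in control, medium dose and high dose livers, and C3 924, 731 and 76.6 CPM. Some features called between the doses were not called at the high dose against control. AKR1D1 averaged 613 CPM in control livers, between its medium and high dose level, with a log2 fold change of 0.97 at the high dose against control (adjusted p = 0.0632). ACADL had -0.35 in that contrast (adjusted p = 0.173), GADD45B -0.50 (0.263) and SLC30A10 -0.60 (0.0554).

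The groups labelled high and medium dose were also compared in the livers of the double-crested cormorant. There edgeR called none of 14579 features, 475 had an unadjusted p under 0.05 and the smallest adjusted p was 0.796. CYP2H1 averaged 1.29 ± 0.468 CPM in high dose and 1.73 ± 0.805 CPM in medium dose cormorant livers, and ALAS1 63.8 ± 16.1 and 65.5 ± 13.5 CPM. In 1 fit of all 29 libraries, the quail change minus the cormorant change passed the test in 77 of the 15596 names tested among the 18869 found in both tables, 0.494%, with 56 differences above 0 and 21 below 0. The difference was 10.25 for CYP2H1 (adjusted p = 4.40e-09), 10.29 for CYP2H2 (1.54e-07) and 4.42 for ALAS1 (1.82e-10). On the negative side it was -2.05 for C1QL1 and -1.24 for SLC6A9 (0.00102 and 0.00835). Without quail high dose replicate 2 the count was 147. Species, embryo age, the dose behind each group name and the separate count tables cannot be told apart in this difference.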

How the data were processed

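Liver mRNA was sequenced as paired reads of 101 bp, 1 library per individual liver sample, per the labels' protocols. The authors deposited 1 table of raw counts per species by protein name, and all values are whole numbers. The table's name gives Seq2Fun with a database of all birds, and the submitters' processing notes name edgeR without a version. Read settings, database version, strandedness and filtering: not given in the sources used here. No genome build applies, and no coordinates or sequences are printed. Gene order came from the RefSeq table of the assembly Coturnix japonica 2.1, used for names and neighbours only.

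The deposited counts went into edgeR 4.0.16 under R 4.3.3, with TMM factors, the filterByExpr filter (count 10, total 15) and a robust quasi-likelihood fit. All 15 quail libraries shared 1 fit, and p-values were adjusted over the 14927 features tested. Each standard error is the size of the log2 fold change over the root of its F statistic. Library totals are in the report, and PCR reads without molecular identifiers are not independent molecules. The labels give replicates as individual liver samples, and the spread between them is what a p-value here measures. Of 1309 listed symbols 1196 were matched to a quail protein name, and symbols are the usual ones of those names. No 2 libraries of a group agreed within sampling noise (chi-square per degree of freedom of 18.5 or more). Family shares and marker levels (mean log2 CPM, prior count 2) used exact permutation tests over 252 arrangements, two-sided.

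Named features were the 15 largest rises and falls among called features that have a symbol and average 0 log2 CPM or more, the 10 called features with the highest level, up to 8 called members of each list and at least its 4 smallest p, esterases, CYP1A, CYP2, CYP3A and ALAS1, and 5 features per direction for the species difference. The members, gene lists and rules were chosen with earlier results of these data known. Alternatives were other size factors, no filter, DESeq2 1.42.0, limma 3.58.1 voom, a replicate block, fewer libraries, a Z-linked covariate and a 1.5-fold minimum. A few features are not reported here. The code was tested on simulated data.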

Additional observations from a re-analysis of the deposited data

Results flagged for a closer look

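In 26 of 400 groups of 5 livers looked at for the named features, 6.5%, the highest or lowest liver stood apart: its gap to the nearest other liver on the log2(CPM + 1) scale, divided by the whole range, was above Dixon's 95% critical value for 5 values, which chance passes in about 1 in 20 groups. Of the features and marker lists together, 13 such values were in high dose replicate 1, the liver with kidney markers, and 8 in medium dose replicate 1, the liver with muscle markers. Values are in CPM, with the range of the other 4 livers of the group in parentheses. In high dose replicate 1 the highest values were SLC34A1 1208 (11.3 to 32.4), GCLC 71.9 (40.5 to 47.3), EHHADH 442 (269.6 to 301) and ASS1 250.1 (0.386 to 0.845). In high dose replicate 1 the highest values were TNFAIP2 23.6 (0.414 to 2.15) and ACSM4-like 408 (6.58 to 11.3). In high dose replicate 1 the lowest values were C3 29.6 (82.7 to 91.4), LIPC 616 (929 to 1098), ATP5F1D 255 (327 to 361) and complement C3-like 4.26 (13.5 to 15.5). In high dose replicate 1 the lowest value was HS3ST3A1 4.69 (6.82 to 7.84). In high dose replicate 3 the highest values were FTH1 18471 (7996 to 9707) and IRS4 69.2 (38.5 to 44.2). In high dose replicate 4 the highest values were GMPR 5.27 (2.30 to 2.76) and AADAC 325 (166 to 194). In medium dose replicate 1 the highest values were UGT1A6 3.71 (0.423 to 0.961), HMGCS1 153 (65.7 to 82.6), LY6E 159 (35.6 to 52.1) and PNPLA6 9.99 (7.501 to 8.08). In medium dose replicate 1 the highest value was UGT1-6-like 5.39 (0.523 to 1.22). In medium dose replicate 1 the lowest value was FABP1 29.1 (158 to 263). In medium dose replicate 2 the highest values were COX6B1 225 (163 to 178) and NDUFB5 286 (226 to 242). In medium dose replicate 5 the highest value was BCL2L1 87.4 (68.0 to 71.6). In medium dose replicate 5 the lowest values were GSTA3 21.1 (41.2 to 52.7) and ABCA2 54.4 (60.5 to 63.2).

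Among marker lists, in mean log2 CPM, the cytosolic ribosomal proteins list was lowest in medium dose replicate 1 at 8.71 (9.05 to 9.19), the hepatocyte list was lowest in high dose replicate 1 at 9.27 (9.68 to 9.82), the granulocyte and thrombocyte list was lowest in high dose replicate 5 at 2.09 (2.81 to 2.98). In the same unit, the lymphocyte list was lowest in medium dose replicate 1 at 0.21 (0.69 to 0.87) and the kidney and mesonephros list was highest in high dose replicate 1 at 7.60 (1.47 to 1.98).

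The change between the high and medium dose differed between quail and cormorant in 40 named features, by the test of the difference itself in 1 fit of all libraries. Values are the quail log2 fold change minus that of the cormorant, with edgeR's adjusted p in parentheses. For P450 enzymes and their partners, heme synthesis and glucuronidation they were CYP2H1 10.25 (4.40e-09), CYP2H2 10.29 (1.54e-07), CYP3A37 5.62 (5.53e-06), CYP3A8 5.87 (6.96e-05), CYP2C19 5.05 (5.65e-07), UGT1A6 3.58 (0.00692) and ALAS1 4.42 (1.82e-10). Next among P450 enzymes and their partners came PGRMC1 1.19 (9.60e-05), CYB5A 1.31 (0.000118), cytochrome P450 2H1-like 11.03 (5.57e-11), cytochrome P450 2C19-like 4.68 (1.28e-06), cytochrome P450 3A9-like 5.91 (5.13e-05), UGT1-1 1.47 (2.79e-05) and UGT1-1-like 1.45 (7.32e-05). For other features with a positive difference they were TPPP 6.92 (3.52e-05), TMEM139 4.86 (0.00692), OSGIN1 1.201 (0.0351), GCLC 1.31 (0.00436), PPARG 1.90 (0.0191), HNF4A 1.19 (0.0319) and DDHD1 1.14 (0.0148). Next among other features with a positive difference came AKR1D1 1.59 (0.0127), ELOVL5 2.25 (0.000812), EHHADH 0.9997 (0.0122), IRS2 1.71 (0.00754), TSKU 2.60 (7.35e-05), GRM2 4.54 (0.0422) and NPTX2 3.02 (7.35e-05). Next among other features with a positive difference came MELTF 1.88 (0.0393). For features with a negative difference they were C3 -3.07 (0.0228), NR0B1 -2.44 (0.0127), C1QL1 -2.05 (0.00102), GMPR -1.63 (0.0392), SLC6A9 -1.24 (0.00835), ACADL -0.79 (0.0308) and AGT -1.39 (0.0392). Next among features with a negative difference came INHBC -2.42 (0.0294), EPO -1.52 (0.00561), at rich interaction domain 3a -0.72 (0.00586) and inhibin beta c chain like -2.68 (0.00692).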

How the results depend on the processing

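No called value of a named feature turned direction under the 20 alternatives tried, of which 19 gave a value for ABCA13, which was too low to be tested with the high and medium dose libraries alone. Some values that were not called did turn, such as that of ASS1, at -0.67 without high dose replicate 1. Of the 126 named features called, 44 kept the call in all alternatives and 82 lost it in at least 1. Of the 282 calls, 58 held in every alternative, 55 of them higher and 3 lower at the high dose. Relative log expression size factors gave 275 calls (274 among the 282), no filter on low counts 214 (206), limma voom 214 (200), a Z-linked covariate 231 (215) and leaving out control replicate 5, the liver labelled day 16, 226 (219). DESeq2 called 614 features, 397 higher and 217 lower, with 274 among the 282. The fit of the high and medium dose libraries alone, which has fewer samples, called 128 (103 higher, 25 lower, 124 among the 282). A 1.5-fold minimum, a stricter test by construction, left 64 (60 higher, 4 lower). Without the filter 50 features were lower. Leaving out 1 library at a time gave 166 to 391 calls, 127 to 280 higher and 37 to 111 lower. Where an alternative's construction does not show why a count moved, the cause was not tested.

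The replicate numbers did not pair the livers. The correlations of same-numbered deviations were 0.017, 9.43e-05, -0.023, -0.059 and -0.12, and no library was closest to its own number. With the replicate number as a block 187 features were called, 131 of them higher, and 170 were among the 282. In the same fit the ABC and organic ion transporters, heme and iron, bile acid and glycolysis lists each had 1 gene higher, the complement list had 1 lower and the fatty acid synthesis list 0 lower.

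List counts rest on few genes. With 1 library left out, the count of higher genes ran from 3 to 6 for conjugation, 1 to 4 for ABC and organic ion transporters, 2 to 5 for antioxidants, 1 to 3 for heme and iron, 1 to 2 for nuclear receptors, 1 to 3 for bile acids, 2 to 6 for fatty acid synthesis, 1 to 2 for fatty acid oxidation and 0 to 3 for glycolysis. The count of lower genes ran from 0 to 2 for fatty acid synthesis, 0 to 2 for plasma proteins and 1 to 2 for complement. DESeq2 gave 5 transporters, 7 antioxidant, 4 heme and iron, 5 bile acid, 7 fatty acid synthesis and 4 glycolysis genes higher, and 5 fatty acid synthesis, 4 plasma protein and 4 complement genes lower. The 1.5-fold minimum left 3 conjugation, 0 transporter, 1 antioxidant, 1 heme and iron, 1 nuclear receptor, 0 bile acid, 0 fatty acid oxidation and 0 glycolysis genes higher, and 0 fatty acid synthesis, 0 plasma protein and 1 complement gene lower. With the high and medium dose libraries alone, 1 transporter, 1 heme and iron, 1 nuclear receptor, 1 bile acid, 1 fatty acid oxidation and 0 glycolysis genes were higher, and 0 fatty acid synthesis, 0 plasma protein and 1 complement gene were lower. No filter and voom each gave 1 nuclear receptor and 1 fatty acid oxidation gene higher, 0 fatty acid synthesis genes lower and 1 complement gene lower, and no filter also gave 0 glycolysis genes higher. The Z-linked covariate gave 1 heme and iron, 1 nuclear receptor and 1 fatty acid oxidation gene higher and 0 fatty acid synthesis genes lower, and relative log expression factors 1 fatty acid synthesis gene lower. Without high dose replicate 1 and medium dose replicate 1 together, 6 antioxidant genes and 1 nuclear receptor were higher and 1 plasma protein was lower. The P450 list stayed within 1.5 times its count of 17 in every alternative. The cormorant count was 0 under each of its alternatives, among which neither DESeq2 nor voom was run, and the species difference ran from 63 to 147 calls with 1 library left out. At the depth of these libraries, features under 1 CPM rest on few counts.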

Other observations

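Some called features lie in no list described above. They were chosen after their values were seen. TBX3, a transcription repressor of liver development, averaged 26.96 CPM in high dose and 49.8 CPM in medium dose livers and fell with a log2 fold change of -0.88 ± 0.13 (SE, edgeR adjusted p = 0.00232). BACH1, a heme-binding repressor of antioxidant genes, averaged 41.2 against 67.8 CPM and fell with -0.72 ± 0.17 (adjusted p = 0.0412), a call that ended without high dose replicates 1, 3, 4 or 5 or medium dose replicates 1, 2, 4 or 5 (adjusted p up to 0.0997). MYC, a growth regulator, averaged 20.6 against 11.8 CPM and rose by 0.80 ± 0.18 (adjusted p = 0.0383), a call that ended without high dose replicates 3 or 5 or medium dose replicates 1, 2, 3 or 5 (adjusted p up to 0.0999). Erythropoietin (EPO), the hormone of red cell formation, averaged 1.58 against 3.11 CPM and fell with -0.99 ± 0.20 (adjusted p = 0.0188), a call that ended without medium dose replicates 2 or 4 (adjusted p up to 0.0546). TSPO2, a translocator protein of red cell precursors, averaged 0.962 against 2.21 CPM and fell with -1.19 ± 0.27 (adjusted p = 0.0336), a call that ended without high dose replicates 3 or 5 or medium dose replicates 2, 3, 4 or 5 (adjusted p up to 0.0910). ALDH18A1, which starts proline synthesis from glutamate, averaged 120 against 240.8 CPM and fell with -1.005 ± 0.17 (adjusted p = 0.00645). PSAP, the precursor of lysosomal saposins, averaged 705 against 1141 CPM and fell with -0.70 ± 0.13 (adjusted p = 0.00917). The heparan sulfate sulfotransferases HS3ST3A1 and HS3ST3B1 both fell, with -0.69 ± 0.16 and -0.66 ± 0.16 (adjusted p = 0.0412 and 0.0491). The call of HS3ST3A1 ended without high dose replicates 1, 3, 4 or 5 or medium dose replicates 2, 4 or 5 (adjusted p up to 0.105) and that of HS3ST3B1 without high dose replicates 1, 2, 3, 4 or 5 or medium dose replicates 2, 4 or 5 (adjusted p up to 0.128).

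Pairs of called features that are close in the RefSeq gene order were seen at other places than ALAS1. ELOVL5, with a log2 fold change of 2.21, is the second gene after GCLC, with 1.14, while LRRC1 and FBXO9 near them had 0.43 and -0.20 and were not called (adjusted p = 0.160 and 0.273). TMEM130, next to NPTX2, had 1.64 (adjusted p = 0.0439), and CGREF1, next to ABHD1 with 0.93 (adjusted p = 0.0265), had 1.79 (adjusted p = 0.0439). The call of TMEM130 ended without high dose replicates 1, 3 or 5 or medium dose replicates 1, 2, 3, 4 or 5 (adjusted p up to 0.113), that of CGREF1 without high dose replicates 2, 4 or 5 or medium dose replicates 1, 2, 3, 4 or 5 (adjusted p up to 0.109) and that of ABHD1 without high dose replicates 4 or 5 or medium dose replicates 1, 2, 4 or 5 (adjusted p up to 0.0733). The genes beside UGDH, SMIM14 and LIAS, had 0.34 and -0.26 (adjusted p = 0.365 and 0.520). These loci were chosen after their values were seen, and no count of such pairs over the genome was made.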
